A study of Mus musculus with 3 samples.

Results

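The 9 genes described here encode 6 receptors for the transmitters of the autonomic nerves and 3 proteins that act directly behind such receptors in heart muscle: the beta receptor genes Adrb1 and Adrb3, the alpha1 receptor genes Adra1a, Adra1b and Adra1d, the muscarinic receptor gene Chrm2, the adenylyl cyclase genes Adcy5 and Adcy6, and the receptor kinase gene Grk5. They were chosen by gene name in the deposited transcript annotation, and the locus that carried the name was looked up in the expression table. Each name led to 1 locus holding 1 gene, so that the 9 genes are 9 of 20117 mRNA loci in a table of 48626 loci. A locus is the set of overlapping transcripts on 1 strand that the assembly merged.

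The libraries were made from total RNA of heart ventricle of C57BL/6 mice (C57BL/6 J in the methods of the study) at the embryonic stages E10.5 and E13.5, named for the day of gestation, and of adults of 8 weeks, with no further treatment or allele named. Each stage has 1 library, and how many hearts entered it is not given, so no difference below has a replicate check, no spread is known and no p-value is given. Levels are FPKM, sequenced fragments scaled to exon length in kb and to the size of the library, which may be compared between genes. Changes are differences of log2(FPKM + 1), and a gene is counted as higher or lower where this difference is 1 or more in size, a scale that understates the change of genes near or below 1 FPKM.

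Noradrenaline and adrenaline bind beta receptors, which couple through the stimulatory G protein to adenylyl cyclase, raise cyclic AMP and speed and strengthen the heartbeat. Acetylcholine from the vagus nerve binds the M2 muscarinic receptor, the product of Chrm2, which couples through inhibitory G proteins to slow the beat and to lower cyclic AMP. Alpha1 receptors couple to phospholipase C, and receptor kinases such as the product of Grk5 phosphorylate active receptors and turn down their signal.

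The libraries carried markers of heart muscle. The median of 8 markers listed as ventricular cardiomyocyte was 579 FPKM at E10.5, then 1329 at E13.5 and then 3706 in the adult. How far that list is specific to the ventricle was not tested. The median of 6 markers listed as atrial was 901, 980 and 1.16 FPKM. Embryonic ventricle is known to express several of these atrial markers, among them Nppa and Myl4, so their embryonic levels do not tell whether atrial tissue was included. Judged from the lowest values in the table, 1 FPKM over 1 kb stands for about 13.8 fragments in the E10.5 and adult libraries and 26.7 in the E13.5 library. Over the 12569 mRNA loci that reached 1 FPKM in at least 1 library, called expressed below, the median change was 0.17 from E10.5 to E13.5, -0.50 from E13.5 to the adult and -0.40 from E10.5 to the adult. Each member's change was therefore also set against that median. In whole tissue, fewer cells of a type and less RNA per cell cannot be told apart.

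Of the 6 receptor genes, all but Adrb3 stood higher in the adult library than at E10.5 by 1.25 to 3.47 more than the median mRNA locus, while the cyclase and kinase genes stood 0.30 to 0.81 above it. Of the 9 members, 4 were higher by 1 or more in the adult than at E10.5, namely Chrm2, Adra1a, Adrb1 and Adra1b, and 0 were lower, while 14.8% of the expressed mRNA loci were higher and 27.3% were lower past the same limit. From E13.5 to the adult 2 members, Chrm2 and Adra1a, were higher and 0 were lower, beside 13.0% and 32.1% of the mRNA loci. From E10.5 to E13.5 the changes of all 9 members lay between -0.24 and 0.55, and 0 were past the limit in either direction, beside 5.89% of mRNA loci higher and 4.85% lower. The median change of the members was 0.21, 0.61 and 0.85 for E10.5 to E13.5, E13.5 to adult and E10.5 to adult. These comparisons share libraries and are not independent of each other. With the libraries scaled by median-of-ratios factors instead, 19.97% of the mRNA loci were higher and 18.4% lower between E10.5 and adult, 20.8% and 18.9% from E13.5 to the adult, and 4.18% and 6.29% from E10.5 to E13.5. With sums made equal without short, globin and mitochondrial loci, the shares were 17.7% and 22.9% from E13.5 to the adult and 3.63% and 7.86% from E10.5 to E13.5. Of the members, 8 reached 1 FPKM in at least 1 library and 1, Adrb3, did not.

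**Figure D1:**
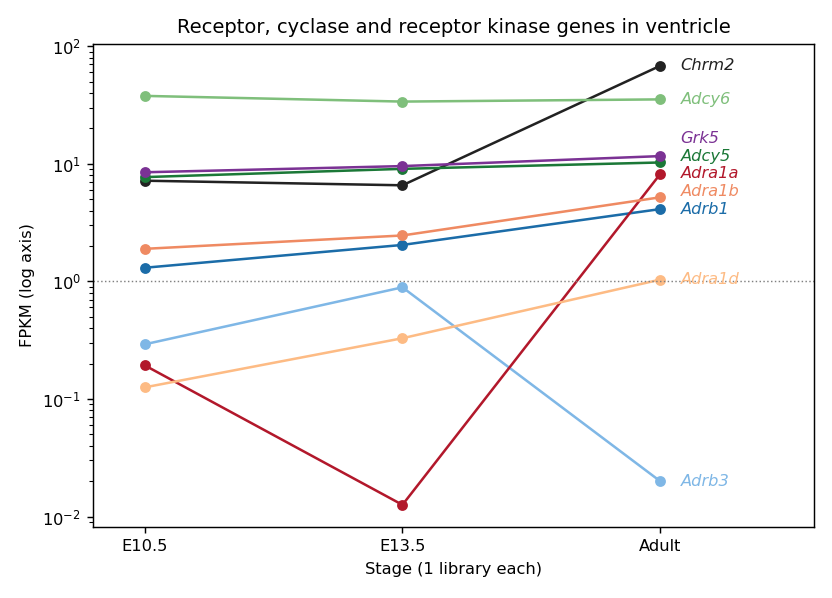
FPKM of the 9 genes (log axis) in the single libraries of E10.5, E13.5 and adult ventricle, with a dotted line at 1 FPKM. Chrm2 passes from 7.18 at E10.5 to 67.9 in the adult, Adcy6 stays between 33.8 and 37.8, and Adrb3 stays below 1 FPKM throughout.

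The order of the levels changed at the top and at the bottom. At E10.5 it ran, from high to low, Adcy6, Grk5, Adcy5, Chrm2, Adra1b, Adrb1, Adrb3, Adra1a and Adra1d, and at E13.5 it was the same except that Adra1d stood above Adra1a. In the adult the order was Chrm2, Adcy6, Grk5, Adcy5, Adra1a, Adra1b, Adrb1, Adra1d and Adrb3. With 1 library per stage it cannot be said which neighbours in these orders differ by more than the spread between animals.

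For the genes whose sequence bears on the results below, the 250 bases before the annotated start are printed, 5′ to 3′ on the strand of the gene, from RefSeq on the GRCm38.p6 assembly. The RefSeq table of start windows held 5 of the 9 members (Adrb1, Adra1b, Chrm2, Adcy5 and Grk5), with 6 windows since Adra1b has a pair of starts. Chrm2 (chr6:36387834-36388083, + strand) is shown because a second RNA on the other strand runs through these bases, Adrb1 (chr19:56721867-56722116, + strand) because it held a match to a searched motif, marked in capitals, and Adra1b (chr11:43836490-43836739, − strand) because it is the start nearest to the deposited locus.
Chrm2: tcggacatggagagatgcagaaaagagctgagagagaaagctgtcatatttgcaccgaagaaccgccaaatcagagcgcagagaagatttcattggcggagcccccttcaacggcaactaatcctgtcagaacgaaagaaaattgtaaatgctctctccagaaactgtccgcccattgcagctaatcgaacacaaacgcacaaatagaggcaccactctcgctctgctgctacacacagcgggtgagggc
Adrb1: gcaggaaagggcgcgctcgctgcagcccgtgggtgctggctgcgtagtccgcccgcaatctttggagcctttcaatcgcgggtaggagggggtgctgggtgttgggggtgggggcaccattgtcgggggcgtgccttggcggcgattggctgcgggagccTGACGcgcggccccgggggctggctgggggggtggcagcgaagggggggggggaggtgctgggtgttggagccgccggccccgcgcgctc
Adra1b: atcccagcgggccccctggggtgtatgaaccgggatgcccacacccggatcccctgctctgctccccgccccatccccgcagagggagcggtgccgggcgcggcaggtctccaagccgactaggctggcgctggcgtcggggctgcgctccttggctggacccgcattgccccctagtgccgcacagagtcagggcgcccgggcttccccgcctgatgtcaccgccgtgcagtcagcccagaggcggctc

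The windows, which run from 250 bases before to 50 after the start, were searched on both strands for 6 short motifs. TGACG, part of the cAMP response element, was found once, at bases -90 to -86 from the Adrb1 start, and 20.8% of all 32851 windows of the table held it. The other 5 motifs were not among the letters of any of the 6 member windows. Of all windows, 11.2% held the motif of GATA factors, searched as AGATAA, and 3.69% held the MEF2 motif. The motif of nuclear receptors, searched as AGGTCA, was in 16.3% of the windows. For the E-box, searched as CACGTG, the share was 7.15%, and for the core promoter motif TATAAA it was 13.6%. The motifs do not overlap each other in these windows, and a match is a description of letters and not a site of binding. The GC content was 79.0% in the Adcy5 window, 72.3% in that of Adrb1, 71.3% in the proximal and 42.3% in the distal window of Adra1b, 54.3% in that of Grk5 and 52.7% in that of Chrm2, with a median of 52.7% over all windows.

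Adrb1 encodes the beta1 receptor, the main beta receptor of heart muscle. Its locus (GRCm38 chr19:56722372-56728858, + strand) was assembled as 2 unspliced transcripts of 2491 and 6487 nt, the first matching the annotated gene and the second running on past its end. Its level was 1.31 FPKM at E10.5, then 2.04 at E13.5 and then 4.12 in the adult. The adult library was highest and the E10.5 library lowest. The change was 0.40 from E10.5 to E13.5, 0.75 from E13.5 to the adult and 1.15 from E10.5 to the adult, the last of which was 1.55 above the median of the mRNA loci. The adult value rests on about 141 fragments and that at E10.5 on about 45.

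The annotated Adrb1 gene runs past the deposited locus. In GENCODE M21 it extends 4255 bp further, and an unnamed unspliced locus on the same strand (chr19:56728978-56733008) begins 119 bp past the end of the deposited locus. This locus was at 0.219, 0.106 and 2.17 FPKM over the 3 stages. It was joined with the Adrb1 locus, weighted by its 4031 nt and by the 2491 nt of the matching Adrb1 transcript. This gave 0.634, 0.845 and 2.92 FPKM, and a change from E10.5 to the adult of 1.26. The change from E13.5 to the adult was then 1.09, past the limit. A weight of 6487 nt, the longer Adrb1 transcript, was not tried and would count the piece for less. The direction from E10.5 to the adult was therefore the same with and without this piece. The level was lower with it, by an amount that depends on the weight.

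A group of 4 further loci without a gene name in the deposited annotation had their nearest edge between 8568 and 14417 bp past the end of Adrb1, and they were chosen for mention after their values were seen. They stood at 0.121 to 0.313 FPKM at E10.5, at 0.0255 to 0.330 at E13.5 and at 1.58 to 5.99 in the adult, so each was highest in the adult library. Both spliced loci among them match lncRNAs listed by the study. Lnc433, on the Adrb1 strand (chr19:56743276-56762066), reached 5.99 FPKM, and Lnc432, on the other strand (chr19:56738741-56746739), reached 5.94, both above the 4.12 FPKM of Adrb1 itself. Their changes from E10.5 were 2.41 and 2.55, and of the 535 spliced unmatched loci above 0 at E10.5 or in the adult 28.2% changed by 1 or more upward and 4.11% by as much as Lnc433. Of the 22731 unspliced unmatched loci above 0 at E10.5 or in the adult, 72.4% were higher in the adult, and of the 15 such loci within 20000 bp of a member or its GENCODE gene 11 were higher (73.3%), close to that share.

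**Figure D2:**
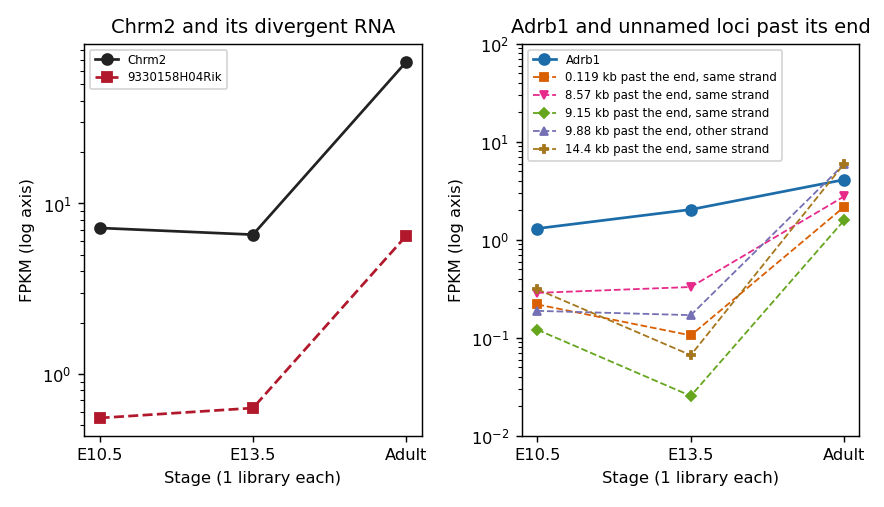
FPKM (log axes) in the 3 single libraries of Chrm2 and the RNA 9330158H04Rik on the other strand (left) and of Adrb1 with 5 unnamed loci past its end, named by their distance and strand (right). Chrm2 and 9330158H04Rik are both highest in the adult, at 67.9 and 6.47 FPKM, and 2 of the loci past Adrb1 lie above it in the adult at 5.99 and 5.94 FPKM.

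Adrb3 encodes the beta3 receptor, best known from adipose tissue. Its locus (chr8:27225776-27229588, − strand, 3 transcripts of 4 exons) was at 0.292 FPKM at E10.5, then 0.890 at E13.5 and then 0.0201 in the adult. The E13.5 library was highest, and the adult library stood at a level of about 1 fragment, against about 66 at E13.5 and 11 at E10.5. The change was 0.55 from E10.5 to E13.5 and -0.89 from E13.5 to the adult, within the limit on this scale, though with a pseudocount of 0.5 or 0.1 the latter passed it. Of the adipocyte markers, Plin1 was listed at 0 in all 3 libraries, Adipoq was at 0.359, 0.166 and 0.115 FPKM, and Ucp1 at 0, 0.0415 and 0.0282, so that these markers were at or near 0 in the E13.5 library, where Adrb3 was highest. Of the 8 adipocyte markers 6, 6 and 5 were below 1 FPKM in the 3 libraries, with sums of 15.4, 19.3 and 727 FPKM. The adult sum came mostly from Fabp4 at 638 FPKM, Plin4 at 60.9 and Cidea at 28.2, which were at 17.9, 0.0315 and 1.12 FPKM at E13.5, and the part of adipocytes in the Adrb3 values was not tested.

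**Figure D3:**
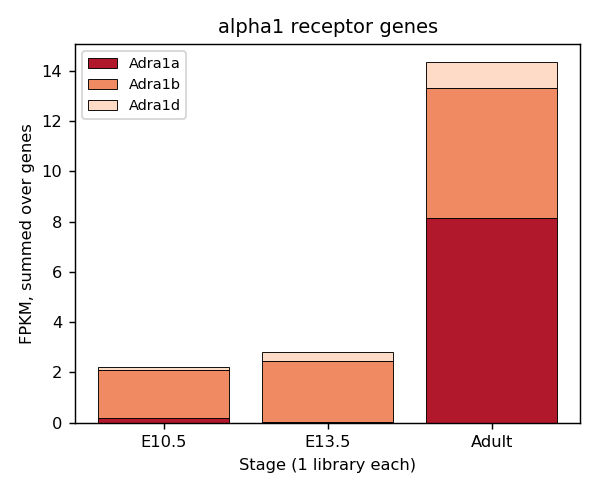
Summed FPKM of the alpha1 receptor genes Adra1a, Adra1b and Adra1d in the 3 single libraries, stacked by gene. The alpha1 sum is 2.21, 2.80 and 14.3 FPKM and Adra1a makes up most of it in the adult only.

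Adra1a encodes the alpha1A receptor, which is present in muscle cells of the heart and in smooth muscle. Its locus (chr14:66635074-66740306, + strand, 2 transcripts of 4 exons) was at 0.193 FPKM at E10.5, then 0.0126 at E13.5 and then 8.13 in the adult. Only the adult library was above 1 FPKM, and the E13.5 value amounts to about 1 fragment against about 464 in the adult. The change was 3.17 from E13.5 to the adult and 2.94 from E10.5 to the adult, the second of these 3.33 above the median of the mRNA loci. In the adult it stood above 54.6% of the expressed mRNA loci, against 3.03% at E10.5. The unmatched locus of the same strand 2248 bp past its end (chr14:66742555-66744031) was joined, weighted by its 1477 nt and by the 4137 nt of the matching Adra1a transcript. The levels were then 0.158, 0.0178 and 6.20 FPKM and the change from E10.5 to the adult 2.64. The longer Adra1a transcript of 11308 nt was not tried as weight and would count the piece for less.

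Adra1b encodes the alpha1B receptor. Its locus (chr11:43774606-43836332, − strand, 1 transcript of 2 exons) was at 1.89 FPKM at E10.5, then 2.46 at E13.5 and then 5.18 in the adult, resting on about 80, 200 and 218 fragments. It was the highest of the 3 alpha1 genes in both embryonic libraries, and the adult library was highest for it. Its change was 0.26, 0.84 and 1.10 for E10.5 to E13.5, E13.5 to adult and E10.5 to adult, the last being 1.49 above the median of the mRNA loci. The GENCODE gene extends 64878 bp upstream of the deposited locus to a distal start, so the values given belong to the transcript assembled near the proximal start, whose upstream bases are printed above. An unnamed unspliced locus on the other strand (chr11:43836761-43837450) began 429 bp from the Adra1b start, was listed at 0 at E10.5, and stood at 0.0599 FPKM at E13.5 and 1.03 FPKM, or about 10 fragments, in the adult.

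Adra1d encodes the alpha1D receptor, known chiefly from the smooth muscle of arteries. Its locus (chr2:131545357-131562285, − strand, 1 transcript of 2 exons) was at 0.126 FPKM at E10.5, then 0.329 at E13.5 and then 1.03 in the adult, on about 4, 21 and 34 fragments. The adult library was highest, and its value lies just above the limit of expression. The change of 0.85 between E10.5 and adult stayed within the limit of 1 and was 1.25 above the median of the mRNA loci. It was past the limit, making 5 members higher, with median-of-ratios scaling (1.03), with pseudocounts of 0.5 and 0.1 and against that median. It lies inside the span of a locus carrying the name of the microRNA Mir3098 on the same strand, which was listed at 0 in all 3 libraries.

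The leading alpha1 gene changed from Adra1b to Adra1a. Adra1a held 8.72% of the alpha1 sum at E10.5, then 0.450% at E13.5 and then 56.6% in the adult. Adra1b held 85.6%, 87.8% and 36.1%, while its own level was highest in the adult. The smooth muscle and pericyte markers, cells that also carry alpha1 receptors, did not move one way: of 8 markers the median was 13.6, 13.2 and 29.9 FPKM and the sum 1312, 1171 and 552 FPKM, and Myh11 was at 0.112, 0.893 and 18.1 FPKM while Acta2 was at 1089.5, 836 and 124. Their part in the alpha1 values was not tested.

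Chrm2 showed the highest adult level of the 9 genes. Its locus (chr6:36387611-36528632, + strand, 4 transcripts of 2 to 3 exons) was at 7.18 FPKM at E10.5, then 6.56 at E13.5 and then 67.9 in the adult. The embryonic libraries were close to each other and the adult one 9.46-fold above E10.5. The change was -0.11 from E10.5 to E13.5, 3.19 from E13.5 to the adult and 3.07 from E10.5 to the adult, the last being 3.47 above the median of the mRNA loci. It moved from above 40.7% of the expressed mRNA loci at E10.5 and 37.6% at E13.5 to above 94.8% in the adult. With some 631, 1114 and 5966 fragments behind them, the 3 values rest on more reads than those of any other receptor gene here.

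The M2 receptor is known to be abundant in the atria. The 6 atrial markers ranged from 5.85 to 2453 FPKM at E10.5, from 4.03 to 2440 at E13.5 and from 0.0610 to 37.9 in the adult, with sums of 6445, 6797 and 44.8 FPKM. In the adult library, where Chrm2 was highest, Myl7, Sln and Bmp10 were below 1 FPKM, Myl4 was at 1.42, Nr2f2 at 3.88 against 5.85 at E10.5, and Nppa at 37.9. The sum of the ventricular cardiomyocyte markers was 15379 FPKM at E10.5, then 22752 at E13.5 and then 38090 in the adult, and the part of either list in the Chrm2 values was not tested. The other muscarinic genes were low: Chrm1, Chrm3, Chrm4 and Chrm5 did not pass 0.214 FPKM in any library, and Chrm2 held 95.9%, 94.8% and 99.7% of the muscarinic sum. The ratio of Chrm2 to Adrb1 was 5.50 at E10.5, then 3.21 at E13.5 and then 16.5 in the adult.

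A long non-coding RNA, 9330158H04Rik, starts on the opposite strand within the first exon of Chrm2. Its locus (chr6:36333138-36388234, − strand, 1 transcript of 6 exons and 3103 nt) overlaps the assembled Chrm2 locus by 624 bases, and by 151 bases the transcript that begins at the RefSeq start. The 250 Chrm2 bases printed above lie within that overlap. It was at 0.550 FPKM at E10.5, then 0.629 at E13.5 and then 6.47 in the adult, a rise of 2.27 between E10.5 and adult on about 24, 52 and 277 fragments. Like Chrm2, it was close between the embryonic libraries and highest in the adult, and Chrm2 stood between 10.4 and 13.1 times above it at the 3 stages. The kit marks the strand, and of the 22805 unspliced unmatched loci in the deposited annotation only 57 are without a strand. Whether the mapping used the strand is not stated in the sources used here, so reads in the shared bases may not be told apart. The microRNA Mir490, which lies inside Chrm2 on the same strand, was listed at 0 in all 3 libraries.

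Adcy6 and Adcy5 encode the adenylyl cyclases that are inhibited by calcium and dominate in heart muscle. Adcy6 (chr15:98589986-98610109, − strand, 5 transcripts of 22 to 23 exons) was at 37.8, 33.8 and 35.3 FPKM over the 3 stages. Adcy5 (chr16:35155354-35306207, + strand, 4 transcripts of 10 to 21 exons) was at 7.71, 9.06 and 10.3 FPKM. Adcy6 was lowest at E13.5 and Adcy5 highest in the adult, both by little: the changes from E10.5 to the adult were -0.10 for Adcy6 and 0.37 for Adcy5. Against the median of the mRNA loci these were 0.30 and 0.77 higher, so the sign for Adcy6 depends on that reference, and with median-of-ratios scaling it was positive.

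Adcy6 was the higher of the pair at every stage. The ratio of Adcy6 to Adcy5 was 4.90 at E10.5, then 3.73 at E13.5 and then 3.44 in the adult, and Adcy6 held 83.1%, 78.9% and 77.5% of their sum. Around Adcy5, 3 unnamed unspliced loci lie on the other strand, starting 950 and 2928 bp from its start (chr16:35152677-35154404 and chr16:35151563-35152426) or overlapping its body (chr16:35304902-35305734). They were at 0.119 to 0.318 FPKM at E10.5, at 0 to 0.216 at E13.5 and at 0.681 to 0.860 in the adult, the library in which most such loci were higher.

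Grk5 (chr19:60889749-61099150, + strand, 6 transcripts of 14 to 16 exons) encodes a receptor kinase found at the cell membrane and in the nucleus of heart muscle cells. It was at 8.47 FPKM at E10.5, then 9.56 at E13.5 and then 11.6 in the adult. The adult library was highest, with a change from E10.5 of 0.41, which was 0.81 above the median of the mRNA loci. Grk5 and Adcy5 were next to each other in the order of levels at all 3 stages.

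**Figure D4:**
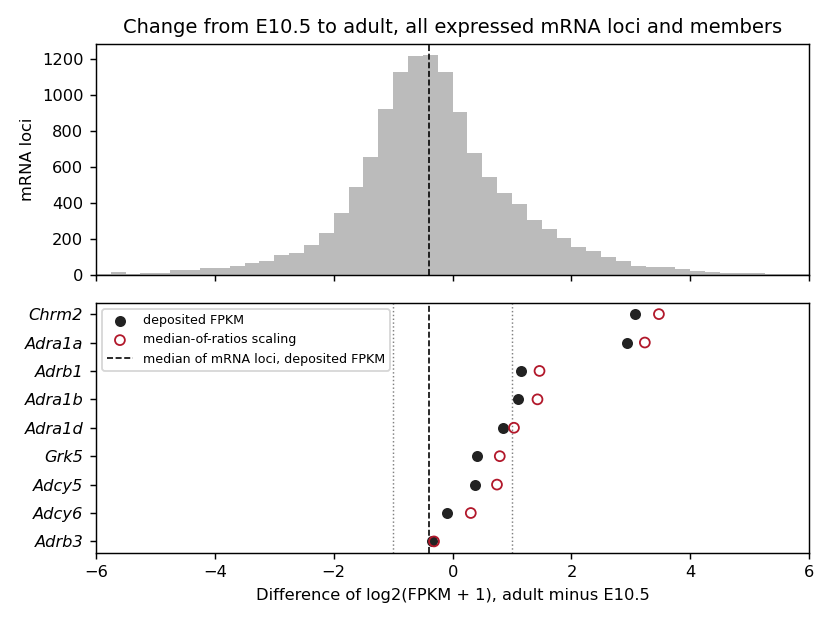
Distribution of the change from E10.5 to adult in log2(FPKM + 1) over the 12569 expressed mRNA loci (top, median -0.40, dashed line) and the change of each member on the deposited scale and with median-of-ratios scaling (bottom, dotted lines at 1 and -1). On the deposited scale 4 members lie beyond 1 and none beyond -1, and the 3 genes that act behind the receptors lie between -0.10 and 0.41.

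The other genes of the pathway were taken from 10 lists with 130 genes, of which 129 had a locus and 104 were expressed. Over all lists 9 genes were higher and 4 lower from E10.5 to E13.5, 23 and 26 from E13.5 to the adult, and 29 and 22 from E10.5 to the adult, where the median change of the 104 expressed genes was -0.06 against -0.40 for all expressed mRNA loci. All changes in the following paragraphs are from E10.5 to the adult. Genes below 1 FPKM in all libraries cannot pass the limit, so counts and medians are given over the expressed genes of a list, beside 14.8% higher and 27.3% lower among the expressed mRNA loci.

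Of 7 other receptor genes (alpha2 and muscarinic) 1 was expressed. This was Adra2b, an alpha2 receptor gene, at 1.33, 1.04 and 0.335 FPKM, a change of -0.80. Adra2a was at 0.459, 0.1399 and 0.0362 FPKM and Adra2c at 0, 0.168 and 0.127.

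The lists of G protein subunit genes had negative medians, below that of all expressed mRNA loci. Of 9 expressed alpha subunit genes 0 were higher and 2 lower, with a median of -0.78, and of 11 expressed beta and gamma subunit genes 1 was higher and 6 lower, with a median of -1.31. Gnai1 and Gnai3, which encode inhibitory alpha subunits that couple to the M2 receptor, were lower in the adult. Gnai1 was at 12.9, 15.7 and 1.67 FPKM and Gnai3 at 51.1, 68.5 and 15.6 FPKM. Gnai2, another inhibitory alpha subunit gene, stood above both at 98.1, 166 and 54.7 FPKM, with a change of -0.83 within the limit. Gnas, which encodes the stimulatory alpha subunit behind the beta receptors, was the highest alpha subunit gene with 540, 584 and 298 FPKM and a change of -0.86 within the limit. Gnb1 and Gnb2, which encode beta subunits, were lower by more than 2 on the log2 scale (-2.04 and -2.03), and so were, within 2, Gng2 (-1.81) and Gng5 (-1.55), which encode gamma subunits.

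Among 5 other expressed adenylyl cyclase genes, 2 were higher and 1 lower. Adcy9 was at 1.35, 1.27 and 14.8 FPKM and Adcy7 at 1.26, 1.83 and 8.25, so that Adcy9 stood above Adcy5 in the adult library. Adcy1 was at 3.29, 1.03 and 0.313 FPKM. Adcy4 was the highest of this list on average, with 10.2, 6.93 and 7.37 FPKM. The macrophage markers, of which 5 of 6 had a locus, had a median of 0.837, 3.06 and 23.6 FPKM in the same libraries, and their part in the cyclase values was not tested.

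Of 13 expressed receptor kinase, arrestin and RGS genes, 3 were higher and 4 lower. Rgs5, Rgs4 and Rgs2, which encode proteins that speed the turning off of G proteins, were the ones higher, with Rgs4 at 0.481, 6.17 and 10.8 FPKM and Rgs2 at 4.11, 8.06 and 12.4. Rgs5 was the highest of the list at 9.81, 47.2 and 240 FPKM, and it is also a pericyte marker. Rgs19 was lower, at 11.4, 11.8 and 3.41 FPKM. The other receptor kinases of the heart, listed as Adrbk1 and Adrbk2 in the annotation and now called Grk2 and Grk3, were at 13.7, 15.5 and 11.1 FPKM and at 7.78, 5.16 and 5.30 FPKM, so that on the deposited scale Grk5 alone of the 3 had an adult value above that at E10.5, while with median-of-ratios scaling Adrbk1 was also higher, by 0.099, and Grk5 stood above Adrbk1 only in the adult.

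Downstream of cyclic AMP, more list genes were higher than lower. Of 16 expressed genes of protein kinase A, its anchors and Epac, 4 were higher and 3 lower, with a median of 0.29. Rapgef4, which encodes an Epac, was at 1.27, 1.64 and 18.5 FPKM, and Pkia, which encodes an inhibitor of the kinase, at 27.7, 45.5 and 134 FPKM. Prkar2b, a regulatory subunit gene, was lower at 10.3, 10.3 and 0.897 FPKM, as was the anchor gene Akap12 at 38.8, 31.5 and 10.6 FPKM. Prkar1a, the regulatory subunit gene with the highest level of the list, was at 150, 118 and 199 FPKM.

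Of 16 expressed phosphodiesterase genes, whose products break down cyclic nucleotides, 7 were higher and 1 lower, with a median of 0.67. Pde1c was at 2.96, 1.74 and 21.4 FPKM, Pde2a at 3.18, 2.63 and 19.9, and Pde4a at 1.53, 0.692 and 7.96. Pde3b was the one that was lower, at 10.6, 9.79 and 2.85 FPKM. Pde4d, the highest on average, was at 26.5, 12.3 and 17.8 FPKM.

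Of 13 phospholipase C beta and protein kinase C genes, 12 had a locus and 11 were expressed. Among the 11 expressed, 2 were higher and 1 lower, with a median of 0.44. Plcb1 was at 2.03, 2.21 and 6.89 FPKM and Plcb4 at 9.19, 9.69 and 19.5. Prkci, the highest of the list on average, was lower at 20.7, 18.5 and 7.79 FPKM.

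The targets of protein kinase A and of the M2 receptor had the highest median change of the 10 lists, 1.68, with 7 of 11 genes higher and 2 lower. Pln, the gene of phospholamban, which restrains the calcium pump until it is phosphorylated, was at 505, 745 and 4551 FPKM. Fxyd1, the gene of phospholemman, was at 99.2, 374 and 424 FPKM. The locus of Tnni3, the gene of cardiac troponin I, also holds 6030429G01Rik and was at 533, 1137 and 4059 FPKM. Ppp1r1a, a phosphatase inhibitor gene, was lower at 19.9, 25.4 and 0.498 FPKM. The list does not separate targets of the kinase from those of the M2 receptor, and its channel genes did not all move one way. The change was 1.78 for Kcnj3, 0.04 for Kcnj5, 1.31 for Hcn2 and -1.88 for Hcn4. Of this list 3 genes, Pln, Tnni3 and Ryr2, are also among the ventricular cardiomyocyte markers.

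Of 11 expressed genes for the making, transport and breakdown of the transmitters, 3 were higher and 2 lower. Maob, which encodes a monoamine oxidase, was at 2.56, 3.69 and 21.6 FPKM while Maoa, which encodes the other, stood at 10.8 FPKM in the E10.5 library and 2.52 in that of the adult. Ddc, an enzyme gene of catecholamine synthesis, was at 24.0, 70.0 and 1.81 FPKM. The locus named Pnmt was at 66.2, 88.0 and 448 FPKM but also holds the cardiac muscle gene Tcap, so these values cannot be assigned to Pnmt. The nerve genes were low, with Th below 1 FPKM in both embryos and listed at 0 in the adult, and a median of 0.305, 0.378 and 0.0983 FPKM over 8 neuron and glia markers.

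**Figure D5:**
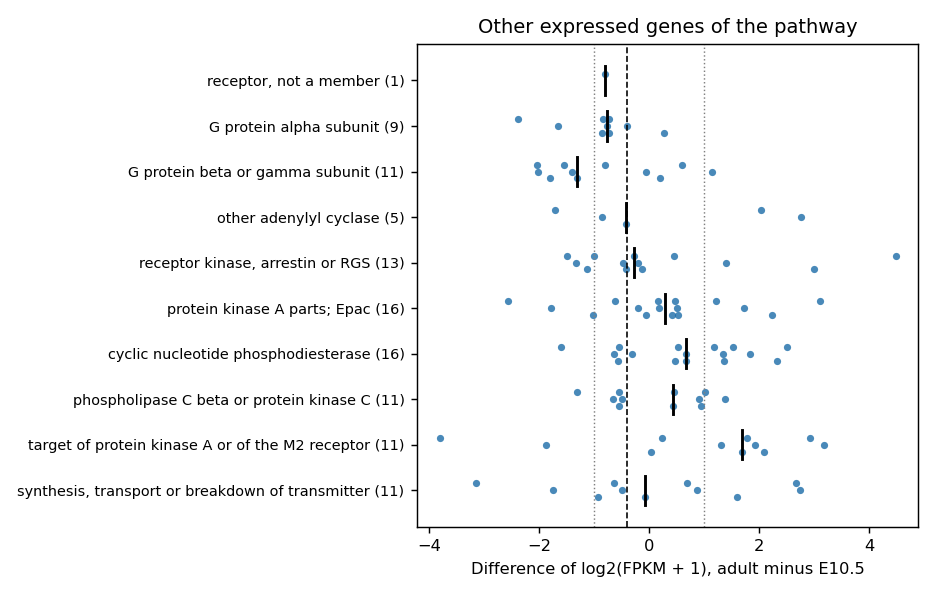
Change from E10.5 to adult in log2(FPKM + 1) for each expressed gene of the 10 pathway lists (points, number of genes in brackets), with the list median (black bar), the median of all expressed mRNA loci (dashed line, -0.40) and the limits at 1 and -1 (dotted lines). The list medians run from -1.31 for the G protein beta and gamma subunits to 1.68 for the targets of protein kinase A and of the M2 receptor.

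The profile of each expressed member was set against those of 12238 expressed mRNA loci holding 1 gene, by the Euclidean distance of the 3 centred values of log2(FPKM + 1). With 3 libraries many profiles are alike, and the number of loci within a distance of 0.25 differed between members. For Chrm2 it was 47 and for Adra1a 46, against 348 for Adrb1, 389 for Adra1b, 461 for Adra1d, 645 for Grk5, 700 for Adcy5 and 711 for Adcy6. The nearest pair was Meig1 and Chpt1 for Chrm2, at distances of 0.0647 and 0.0668, Ndufv2 and Ccdc88c for Adrb1, Col14a1 and Trmt5 for Adra1b, and Afap1l2 and Coq5 for Adra1d. The locus nearest to Adra1a was Abca6. For the genes behind the receptors the nearest pair was Gpatch1 and Nckipsd for Adcy5, Ctso and Txlng for Adcy6, and Zfp790 and St3gal3 for Grk5.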

How the data were processed

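Total RNA of heart ventricle was sequenced as paired ends with a stranded total RNA kit, 1 library per stage. The authors mapped the reads to mm10 (the same assembly as GRCm38) with TopHat2 and Bowtie and ran the Cufflinks assembly both with a UCSC annotation and without one. Exact versions and further options are not given in the sources used here. The deposited values are FPKM per merged locus, and the FPKM columns sum to 601115 (E10.5), 808971 (E13.5) and 443471 (adult). An exact 0 can be a failed estimate and is described as listed at 0. Depth was estimated by taking the commonest smallest product of FPKM and length in kb among unspliced loci (0.0725, 0.0375 and 0.0725) as 1 fragment, and is approximate. Fragment numbers of a member use its longest matching transcript.

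Changes are differences of log2(FPKM + 1). A limit of 1, a minimum of 1 FPKM in at least 1 library, and the deposited scaling were the main settings. Alternatives were median-of-ratios factors (1.07, 1.19 and 0.804), an equal sum without short, globin and mitochondrial loci (0.962, 1.16 and 0.898), pseudocounts of 0.1 and 0.5, a limit of 2, changes against the median, other minimums, loci without those joining several genes, loci summed by name and, added after the data were seen, loci joined with unmatched pieces inside the GENCODE M21 gene. The members, marker lists and pathway lists were chosen with earlier results of these data known.

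Named were each member; alpha2 and other muscarinic receptor genes; in each list up to 4 genes with the largest change from E10.5 to adult past 1 and the highest gene by mean; loci overlapping a member or starting within 3000 bp of its start on the other strand; and the 2 loci with the nearest profile. Some loci fall outside this rule and were chosen after their values were seen. They are those past the ends of Adrb1 and Adra1a, and Adrbk1, Adrbk2, Gnai2, Kcnj3, Kcnj5, Hcn2, Hcn4 and Th. Promoter bases are from RefSeq (GRCm38.p6), and protein sequences were not used here. Some items are not reported here. The scripts were tested on simulated data. Calculations used Python 3.11.15 with numpy 2.4.6 and pandas 2.3.3.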

Additional observations from a re-analysis of the deposited data

How the results depend on the processing

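Of 189 values of member changes under the alternatives, 178 moved little and 11 moved. Some of the 178 could not move. Each member name has 1 locus, so summing by name repeats the main values, and joining pieces altered only Adrb1 and Adra1a. The sign changed in 7 of the 189, for Adcy6 and Adrb3 from E10.5 to adult and for Adcy5 and Grk5 from E10.5 to E13.5, all within 0.34 of 0 at the main settings. Of 132 counts 111 stayed within 1.5 times. Some of these 111 were fixed, since genes below 1 FPKM in all libraries cannot pass the limit and other minimums repeat the main counts. Counts are of genes past the limit, members or list genes. From E10.5 to adult, 5 members were higher in place of 4 with median-of-ratios scaling, either smaller pseudocount and against the median, since Adra1d passed. With median-of-ratios scaling, 4 members were higher from E13.5 to adult, and 35 list genes were higher and 17 lower. The equal sum also gave 4 members higher from E13.5 to adult. Joining pieces gave 3 members higher from E13.5 to adult in place of 2, since Adrb1 passed, beside 13.0% of mRNA loci higher. A pseudocount of 0.1 gave 1 member higher and 1 lower from E10.5 to E13.5 with 8 list genes lower, 4 members higher and 1 lower from E13.5 to adult, and 1 member lower from E10.5 to adult, where the change was 4.81 for Adra1a, 2.33 for Adra1d and -1.71 for Adrb3. With a pseudocount of 0.1, 10.2% of mRNA loci were higher and 7.54% lower from E10.5 to E13.5. The shares were 15.6% and 36.9% from E13.5 to adult and 17.5% and 32.7% from E10.5 to adult. A pseudocount of 0.5 gave 1 member lower from E13.5 to adult, beside 14.4% of mRNA loci higher and 34.8% lower. Its shares from E10.5 to adult were 16.3% and 30.2%. A limit of 2 left 3 list genes higher and 0 lower from E10.5 to E13.5, 13 higher and 9 lower from E13.5 to adult, and 13 higher and 6 lower from E10.5 to adult, with 2 members higher. With that limit, 0.851% of mRNA loci were higher and 0.247% lower from E10.5 to E13.5. The shares were 4.41% and 9.88% from E13.5 to adult and 5.59% and 8.10% from E10.5 to adult. Against the median of all mRNA loci, 5 members were higher from E13.5 to adult, and 37 list genes were higher and 15 lower. Of the mRNA loci, 21.4% were then higher and 17.9% lower, and from E10.5 to adult 20.9% and 16.8%. By construction a smaller pseudocount widens the changes of low genes, and the other scalings and the median raise adult values against embryonic ones. No paired analysis was possible because E10.5, E13.5 and adult have 1 library each. The single libraries limit every comparison here: stage, litter, dissection and library preparation cannot be told apart, and values under about 1 FPKM rest on few fragments.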
